A study of Mus musculus with 45 samples.

Results

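Pde4b, Usp28, Acss1, Car2 and Bambi-ps1 are 5 of the 55450 rows of a gene count table. They were chosen by their expression level, because it differed between S1PR4-/- and WT non-TFH cells, and because they lie outside chromosome 10, which carries S1pr4. The table held 45 RNA-seq samples of cells sorted from the popliteal draining lymph node (dLN) of mice immunized in the footpad with 50 µg of ovalbumin and 5 µg of lipopolysaccharide in an emulsion with incomplete Freund's adjuvant. TFH cells (TCRβ+ CD4+ PD1+ CXCR5+) and non-TFH CD4+ T cells (PD1- CXCR5-) were sorted on day 6, and GC B cells (B220+ GL7+ Fas+) and non-GC B cells (GL7- Fas-) on day 9. Each of these 4 populations came from WT littermates and from S1PR4-/- mice, all males and females of 8 to 12 weeks from a colony labelled B6.129P2-S1pr4tm1Dgen/J and crossed to C57/BL6 for at least 10 generations. The S1PR4-/- mice lack the receptor in every cell type, so the labels do not separate an effect in the sorted cells from one in the rest of the mouse. There were 6 samples in each group, except for 5 WT and 4 S1PR4-/- samples of non-GC B cells.

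Total expected counts per sample ran from 26299429 to 45548215. S1pr4 had between 505 and 6305 counts in the WT samples and between 0 and 40 in the S1PR4-/- samples, as the labels say. All 12 T cell markers averaged above 1 CPM (counts scaled to the library total) in each T cell group, and all 10 B cell markers in each B cell group. Summed TFH markers ran from 3150 to 3758 CPM in WT TFH samples and from 224 to 341 CPM in WT non-TFH samples. Summed GC B markers ran from 1687 to 2738 CPM in WT GC B samples and from 135 to 193 CPM in WT non-GC B samples. Xist, the transcript of the inactive X chromosome in females, was above 1 CPM in 5 of 6 WT and 2 of 6 S1PR4-/- samples of both TFH and non-TFH cells. The corresponding counts were 3 of 6 and 3 of 6 in GC B cells and 3 of 5 and 2 of 4 in non-GC B cells. The share of samples with Xist thus moved with genotype in the T cell groups, and values within each Xist class are given beside the T cell results.

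The 4 protein-coding genes have unrelated roles. Pde4b encodes a phosphodiesterase that degrades cyclic AMP, the second messenger through which many G protein-coupled receptors restrain T cell receptor signaling. Usp28 encodes a deubiquitinase that removes ubiquitin from proteins such as MYC and so counters the ubiquitin ligase FBXW7. Acss1 encodes the mitochondrial acetyl-CoA synthetase, which lets cells burn acetate, and Car2 encodes carbonic anhydrase II, a cytosolic enzyme that interconverts carbon dioxide and bicarbonate. Bambi-ps1 is a processed pseudogene, a copy of a spliced transcript reinserted in the genome, of Bambi, a decoy receptor that dampens TGF-β signaling.

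The genes do not lie together. In the GENCODE M21 annotation of mm10, Pde4b (ENSMUSG00000028525.16) spans chr4:102087543-102607259 on the plus strand and Usp28 (ENSMUSG00000032267.8) spans chr9:48985375-49042517 on the plus strand. Car2 (ENSMUSG00000027562.12) spans chr3:14886273-14900770 on the plus strand. Acss1 (ENSMUSG00000027452.11, chr2:150618105-150668500) and Bambi-ps1 (ENSMUSG00000081219.1, chr2:122466935-122467526) are both on the minus strand of chromosome 2. The only annotated gene that overlaps one of them is E130215H24Rik, on the opposite strand across an exon of Acss1. It averaged 2.05 CPM over all samples, and whether the counting used strand is not given in the sources used here.

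Promoter sequences in RefSeq (GRCm38.p6) were matched for 3 of the 5 genes, with 1 promoter each for Acss1 and Usp28 and 4 for Pde4b. The 250 bases before the RefSeq start are shown for 1 promoter of each of these genes. RefSeq starts differ from the GENCODE gene starts, so the Acss1 and Pde4b windows lie inside the spans given above. Capitals mark the GC box (GGGCGG) and the core of Krüppel-like factor sites (CACCC) on either strand. The Acss1 window is chr2:150668241-150668490 on the minus strand, and the Usp28 window is chr9:48985135-48985384 on the plus strand. The Pde4b window shown, the first of the 4 by position, is chr4:102421305-102421554 on the plus strand.
Acss1: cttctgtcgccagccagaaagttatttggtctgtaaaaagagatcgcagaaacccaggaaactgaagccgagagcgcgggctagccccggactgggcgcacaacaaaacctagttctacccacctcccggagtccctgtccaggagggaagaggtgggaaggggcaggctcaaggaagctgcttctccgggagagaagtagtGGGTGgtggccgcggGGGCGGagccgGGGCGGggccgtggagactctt
Usp28: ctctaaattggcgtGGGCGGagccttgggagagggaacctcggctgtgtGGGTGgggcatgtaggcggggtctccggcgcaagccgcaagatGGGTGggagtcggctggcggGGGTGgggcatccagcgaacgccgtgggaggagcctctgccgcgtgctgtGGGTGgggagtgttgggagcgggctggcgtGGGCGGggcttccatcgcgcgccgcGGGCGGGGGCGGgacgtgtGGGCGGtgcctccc
Pde4b: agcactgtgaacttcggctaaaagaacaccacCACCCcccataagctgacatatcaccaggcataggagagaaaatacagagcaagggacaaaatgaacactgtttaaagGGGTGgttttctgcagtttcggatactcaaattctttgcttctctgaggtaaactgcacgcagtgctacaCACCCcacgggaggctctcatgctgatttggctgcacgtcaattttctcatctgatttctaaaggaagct
The Usp28 window was 73.2% G and C and that of Acss1 61.6%, against a median of 52.4% over 32851 promoters, while the 4 Pde4b windows lay between 43.2% and 50.8%. The CACCC core was in 5 of the 6 promoters, and 52.0% of all promoters held it. The GC box was in those of Acss1 and Usp28 and in 32.7% of all. CCAAT, the NF-Y box, was in that of Usp28 and in 33.8% of all, and TGACGT, the core of the cyclic AMP response element, was in the Pde4b promoter shown and in 6.5% of all. TGACTCA (AP-1, in 4.5% of all), TGTTTAC (FOXO, 3.2%) and CACGTG (E box, 6.0%) were in none of the 6 windows. A match describes the letters only.

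Of the 5 genes, Bambi-ps1 shared the largest part of its sequence with another gene. Over 606 aligned columns, its transcript was 88.4% identical to that of Bambi, and 17 of its 562 distinct words of 31 bases (3.025%) also occur in Bambi. The corresponding share was 0.267% for Acss1, 0.019% for Pde4b and 0 for Usp28 and Car2. The expected counts of Acss1 were not whole in 12 of 45 samples, and those of the other 4 genes were whole in all. The stretch of 150 bases with the most differences, bases 426 to 575 of the transcript (chr2:122466952-122467101, minus strand, mm10), shows how the row can be told from Bambi, with the 20 bases that differ or have no partner in capitals.
Bambi-ps1: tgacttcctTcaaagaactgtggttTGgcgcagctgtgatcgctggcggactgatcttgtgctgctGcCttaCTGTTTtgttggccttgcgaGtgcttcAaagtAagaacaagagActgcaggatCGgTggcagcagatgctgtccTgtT
Bambi itself had 3 to 44 counts in WT and 12 to 23 in S1PR4-/- TFH samples, and 19 to 86 counts in WT and 39 to 79 in S1PR4-/- non-TFH samples, and it was not called between genotypes in either (adjusted p = 0.693 and 0.877, edgeR). Reads of the pseudogene and of its parent that fall in shared words cannot be told apart.

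**Figure D1:**
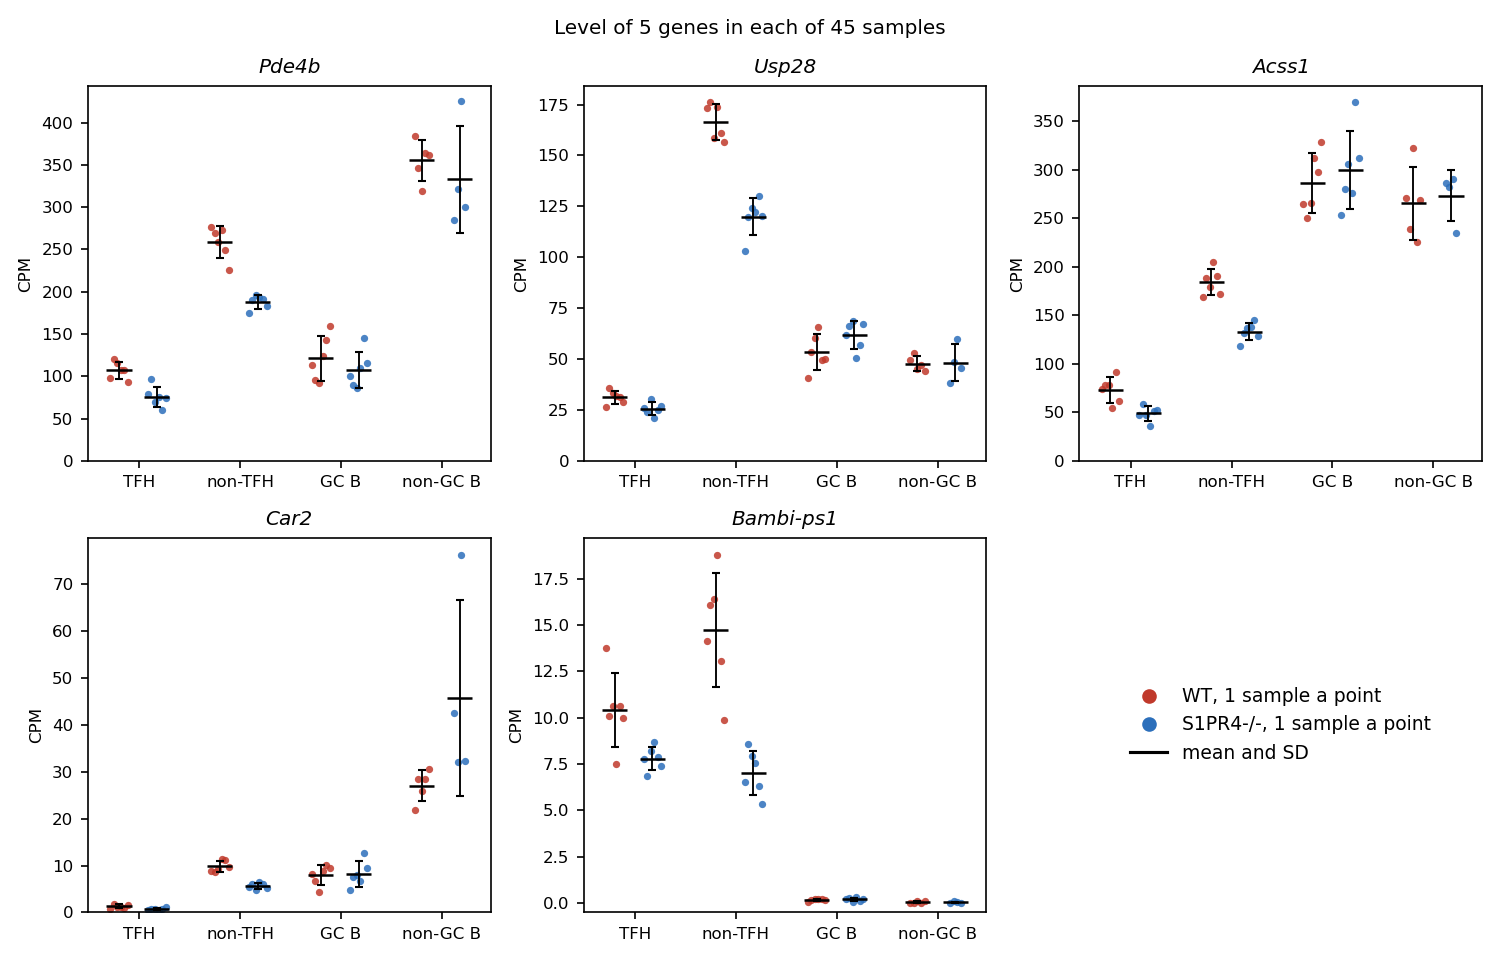
Level of each gene in CPM (y axis, linear, scaled by TMM over all 45 samples) in the 4 populations (x axis), with 1 point for each WT (red) and S1PR4-/- (blue) sample and the mean and SD in black. The S1PR4-/- points lie below all WT points for the 5 genes in non-TFH cells, Car2 lies above in non-GC B cells, and Bambi-ps1 is near 0 in B cells.

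In non-TFH cells, the contrast that chose them, all 5 genes were lower in S1PR4-/- than in WT samples with no overlap. These values are a description with no test. Pde4b ran from 226 to 276 CPM (median 264) in the 6 WT samples and from 175 to 196 CPM (median 191) in the 6 S1PR4-/- samples. Usp28 ran from 157 to 176 CPM (median 167) in WT and from 103 to 130.1 CPM (median 121) in S1PR4-/- samples. Acss1 ran from 169 to 205 CPM (median 184) in WT and from 119 to 146 CPM (median 134) in S1PR4-/- samples. These 3 genes thus differed by nearly the same proportion, the S1PR4-/- minus WT differences of the means being -27.4%, -28% and -27.5% of WT. Car2 ran from 8.67 to 11.4 CPM (median 9.55) in WT and from 4.77 to 6.45 CPM (median 5.78) in S1PR4-/- samples. Bambi-ps1 ran from 9.91 to 18.8 CPM (median 15.1) in WT and from 5.35 to 8.59 CPM (median 7.04) in S1PR4-/- samples. These were the 2 genes with the larger relative differences, at -42.4% and -52.2% of WT, and the lowest WT sample of Bambi-ps1 was close to the highest S1PR4-/- sample.

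The log2 fold changes of S1PR4-/- over WT in non-TFH cells were -0.46 (SE 0.06) for Pde4b, -0.47 (SE 0.07) for Usp28, -0.46 (SE 0.07) for Acss1, -0.79 (SE 0.12) for Car2 and -1.06 (SE 0.16) for Bambi-ps1. The choice placed all 5 among the 31 genes (0.235% of 13197 tested, 0.159% lower) with a false discovery rate (FDR) under 0.05. Car2 and Bambi-ps1 were also past a 1.5-fold change, as were 0.114% of genes (0.0682% lower). The groups did not overlap in 1.11% of the genes tested. Nothing is read from these counts, since this contrast chose the genes. Of the 31 genes, 9 were on chromosome 10 and 22 elsewhere, 14 of the 22 lower and 8 higher in S1PR4-/- samples. By p-value outside chromosome 10, the 5 genes held places 2 to 6, after Tdg-ps, a processed pseudogene. The last of them was Car2, and the next gene was Rnf145, with a log2 fold change of -0.34, so no gap in the data separates the 5 from the genes after them. Over 9 other settings the log2 fold change ran from -0.51 to -0.39 for Pde4b, from -0.47 to -0.38 for Usp28, from -0.46 to -0.35 for Acss1, from -0.80 to -0.63 for Car2 and from -1.29 to -1.02 for Bambi-ps1.

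In TFH cells, none of whose samples entered the choice, the 5 genes were again lower on average in S1PR4-/- samples, each with some overlap. Pde4b ran from 93.7 to 121 CPM (median 108) in the 6 WT samples and from 60.7 to 96.4 CPM (median 75.1) in the 6 S1PR4-/- samples. The lowest 5 S1PR4-/- samples were below every WT sample. Acss1 ran from 54.4 to 91.6 CPM (median 76.2) in WT and from 36.5 to 58.9 CPM (median 49.7) in S1PR4-/- samples. Again only 1 S1PR4-/- sample reached into the WT range. Usp28, which was at its lowest in this population, ran from 26.4 to 35.8 CPM (median 31.6) in WT and from 20.9 to 30.2 CPM (median 25.7) in S1PR4-/- samples. Bambi-ps1 ran from 7.51 to 13.8 CPM (median 10.4) in WT and from 6.83 to 8.68 CPM (median 7.83) in S1PR4-/- samples. The lowest WT sample of Bambi-ps1 lay inside the S1PR4-/- range and the other 5 above it. Car2 was barely present, with 25 to 71 counts in WT samples (0.789 to 1.90 CPM, median 1.25) and 18 to 33 counts in S1PR4-/- samples (0.443 to 1.06 CPM, median 0.689).

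By edgeR's quasi-likelihood test, Pde4b fell by 0.47 on the log2 scale (SE 0.09, adjusted p = 0.0303) and Acss1 fell by 0.55 (SE 0.12, adjusted p = 0.0491) in S1PR4-/- TFH cells, where 1.41% of 13495 genes had an FDR under 0.05 (0.86% lower). Neither was past 1.5-fold, so 0 of the 5 genes were called with both thresholds, against 0.496% of all genes (0.4% lower), and DESeq2 and limma voom also called 0. The other log2 fold changes were -0.26 (SE 0.09, adjusted p = 0.144) for Usp28, -0.88 (SE 0.29, adjusted p = 0.122) for Car2 and -0.39 (SE 0.13, adjusted p = 0.116) for Bambi-ps1. The unadjusted p was under 0.05 for 5 of 5 genes and for 19.2% of all genes. The median log2 fold change of the 5 was -0.47, beside -0.00244 over all genes tested, of which 50.6% had a negative value. By DESeq2 the adjusted p was 0.000255 for Pde4b and 0.00182 for Acss1, and by limma voom it was 0.0314 and 0.0519. Leaving out 1 sample at a time lost the FDR of Pde4b in 7 of 12 edgeR fits (adjusted p between 0.0542 and 0.0816). That of Acss1 was lost in 9 of 12 (adjusted p between 0.0516 and 0.11). Pde4b was kept only without WT replicate 1, 4 or 6 or S1PR4-/- replicate 2 or 3, and Acss1 only without WT replicate 4 or 6 or S1PR4-/- replicate 2, while Bambi-ps1 passed without WT replicate 4 (adjusted p = 0.0499).

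**Figure D2:**
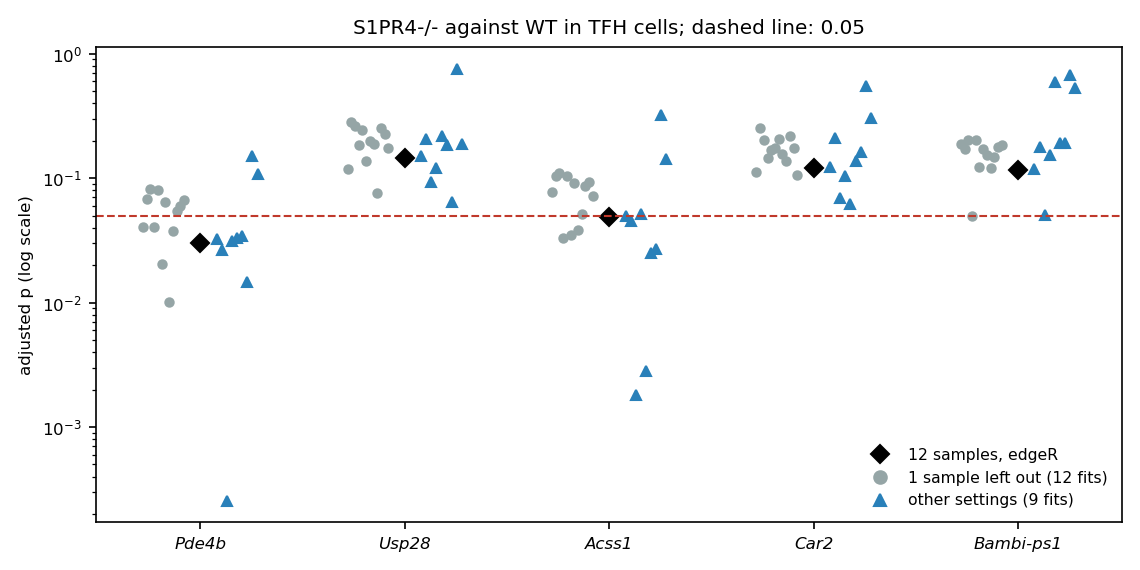
Adjusted p of each gene (x axis) for S1PR4-/- against WT in TFH cells on a log scale (y axis), from the 12 samples (black), with each sample left out (grey) and under 9 other settings (blue). Pde4b and Acss1 have points on both sides of the dashed line at 0.05, and Usp28 and Car2 stay above it in the fits shown.

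The TFH samples are not wholly independent of the non-TFH samples. The methods give 6 mice of each genotype, and TFH and non-TFH samples with the same number lay on the same side of 1 CPM of Xist in 6 of 6 WT and 6 of 6 S1PR4-/- pairs, so the same mice may have given both populations.

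Sex could be compared within the T cell groups only in part. In TFH samples with Xist above 1 CPM, Pde4b averaged 106 CPM in 5 WT and 68.4 CPM in 2 S1PR4-/- samples, a ratio of 0.647, and in those at or below 1 CPM it was 115 CPM in 1 WT sample and averaged 79.9 CPM in 4 S1PR4-/- samples, a ratio of 0.692. The ratios in the 2 classes were 0.612 and 0.657 for Acss1, 0.749 and 0.809 for Usp28, 0.486 and 0.582 for Car2, and 0.797 and 0.711 for Bambi-ps1. In non-TFH samples the ratios of S1PR4-/- over WT within the 2 Xist classes were 0.743 and 0.717 for Pde4b, 0.75 and 0.738 for Usp28, 0.766 and 0.722 for Acss1, 0.628 and 0.577 for Car2, and 0.481 and 0.433 for Bambi-ps1. The non-TFH ratios are a description of the samples that chose the genes. In both populations 1 class held a single WT sample and the other 2 S1PR4-/- samples. Within the 7 TFH samples with Xist above 1 CPM the adjusted p was 0.107 for Pde4b and 0.142 for Acss1.

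**Figure D3:**
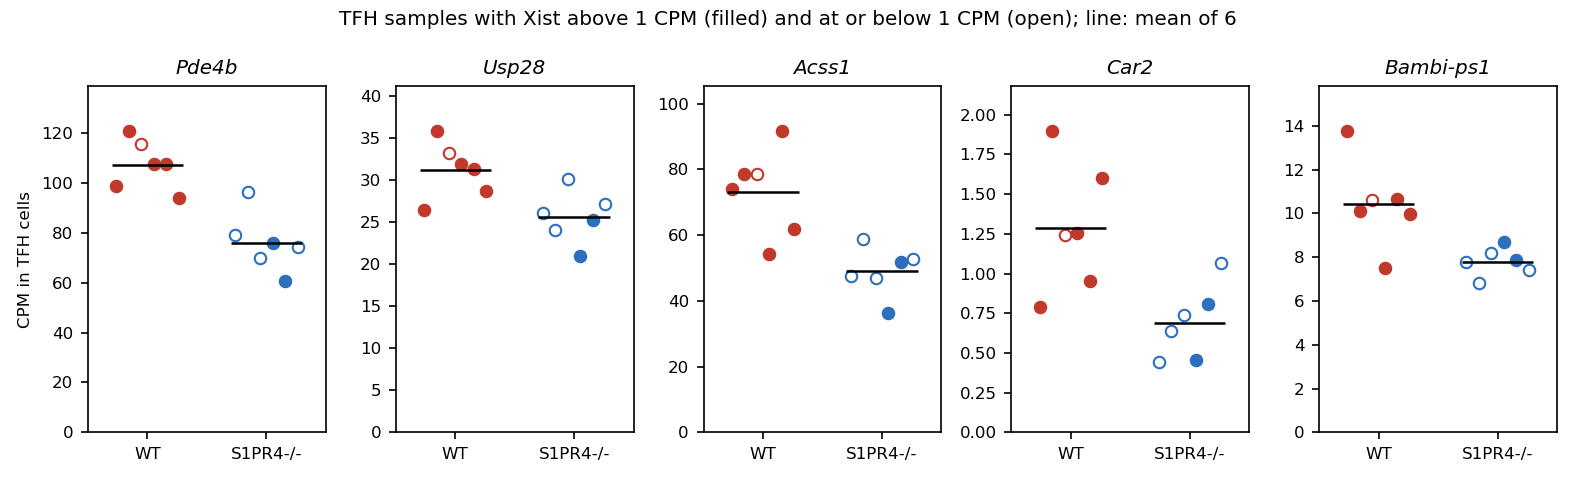
CPM of each gene in the 6 WT (red) and 6 S1PR4-/- (blue) TFH samples (y axis, from 0), filled where Xist was above 1 CPM and open where it was not, with the group mean as a line. Filled and open points of the S1PR4-/- samples have overlapping ranges for each gene, and 5 of the 6 WT points but 2 of the 6 S1PR4-/- points are filled.

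Traces of B cell RNA also moved with genotype. The 10 B cell markers summed to between 0.974% and 3.04% (median 2.11%) of their level in non-GC B cells in WT TFH samples and to between 0.987% and 1.82% (median 1.57%) in S1PR4-/- TFH samples. In non-TFH samples the medians were 0.163% and 0.0909%. Cd22 made up most of the sum in TFH samples, with means of 183 CPM in WT and 194 CPM in S1PR4-/- samples. Each of the other B cell markers had a lower mean in S1PR4-/- than in WT TFH samples. At the level of each gene in non-GC B cells, those traces would carry 7.32 CPM of Pde4b in WT and 4.91 CPM in S1PR4-/- TFH samples, a difference of 2.42 CPM beside a measured difference of 31.2 CPM. The same values for Acss1 were a difference of 1.45 CPM beside 24.1 CPM. For Car2 they were 0.558 CPM in WT and 0.675 CPM in S1PR4-/- samples, beside measured means of 1.29 and 0.691 CPM. The Car2 value for S1PR4-/- samples uses the mean of S1PR4-/- non-GC B samples, which replicate 3 raises, and the part of B cell RNA in the measured Car2 was not tested. These traces also depend on the marker. Cd79a averaged 23.3 CPM in WT and 4.16 CPM in S1PR4-/- TFH samples, beside 2640 and 2794 CPM in non-GC B samples. By Cd79a alone the traces would be smaller in both genotypes, and that of Car2 would be lower in S1PR4-/- than in WT samples. In non-TFH samples the trace of Car2 would be 0.0503 CPM of the 9.87 CPM measured in WT. With the B marker score as a covariate, the adjusted p in TFH cells became 0.151 for Pde4b and 0.323 for Acss1 (edgeR). The log2 fold changes were then -0.50 and -0.47, beside -0.47 and -0.55 without it. Car2 is also abundant in red cell precursors. The 9 erythroid markers summed to between 0.109 and 7.32 CPM in WT and between 0 and 0.392 CPM in S1PR4-/- TFH samples, with 3 and 7 of them at 0 in every sample. In non-TFH samples the sums had a median of 2.58 CPM (0.450 to 7.25) in WT and 0.0422 CPM (0 to 12.7) in S1PR4-/- samples, with 4 and 2 markers at 0 in every sample. Their part in the Car2 values was not tested. The 6 regulatory T cell markers summed to between 221 and 498 CPM (median 446) in WT and between 363 and 675 CPM (median 544) in S1PR4-/- non-TFH samples, and to medians of 523 and 617 CPM in TFH samples. The 10 myeloid and dendritic cell markers summed to between 105 and 172 CPM in WT and between 79.9 and 558 CPM in S1PR4-/- TFH samples, with medians of 150.5 and 140.1 CPM. The 8 plasma cell markers summed to between 290 and 676 CPM (median 356) in WT and between 241 and 288 CPM (median 264) in S1PR4-/- TFH samples. Their medians were 155 and 142 CPM in non-TFH samples. In WT and S1PR4-/- TFH samples Jchain averaged 63.3 and 5.01 CPM and Mzb1 41.0 and 1.98 CPM, while Prdm1 averaged 21.4 and 23.4 CPM. The part of these cells in the results was not tested. In sorted bulk samples, fewer cells with a transcript and less of it in each cell cannot be told apart.

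In GC B cells the 4 genes that could be tested showed no difference between genotypes at these thresholds. Pde4b ran from 92.5 to 159.7 CPM (median 118) in the 6 WT samples and from 85.8 to 145 CPM (median 105) in the 6 S1PR4-/- samples. Usp28 ran from 40.9 to 65.8 CPM (median 51.8) in WT and from 50.7 to 68.7 CPM (median 63.9) in S1PR4-/- samples. Acss1 ran from 250.1 to 329 CPM (median 282) in WT and from 253 to 369.9 CPM (median 293) in S1PR4-/- samples. Car2 ran from 4.46 to 10.2 CPM (median 8.48) in WT and from 4.69 to 12.7 CPM (median 7.74) in S1PR4-/- samples. The ranges of the 2 genotypes overlapped for each of these genes. The 95% confidence intervals of the log2 fold change of S1PR4-/- over WT were -0.51 to 0.16 for Pde4b, -0.03 to 0.45 for Usp28, -0.15 to 0.27 for Acss1 and -0.49 to 0.55 for Car2. The adjusted p was 0.985 for the first 3 and 0.997 for Car2 (edgeR). None of the 4 was called (0.0612% of 13070 genes were), 0 had an unadjusted p under 0.05 (4.13% of all did), and DESeq2 and limma voom called 0. Bambi-ps1 had 3 to 8 counts in WT and 2 to 9 counts in S1PR4-/- GC B samples, too few for a test.

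In non-GC B cells Car2 was the exception, higher in each of the 4 S1PR4-/- samples than in any of the 5 WT samples. It measured 21.9, 28.4, 26.0, 28.4 and 30.5 CPM in WT replicates 1 to 5. In the S1PR4-/- samples it measured 42.5, 32.2, 76.2 and 32.2 CPM. Replicate 3 of the S1PR4-/- group stood far above the rest with 2751 counts, while replicates 2 and 4 lay just above the highest WT sample. The log2 fold change of S1PR4-/- over WT was 0.76 (SE 0.23, 95% confidence interval 0.25 to 1.26). It did not pass the adjustment over all genes (adjusted p = 0.981, edgeR), and across the 9 other settings and 9 left-out samples the adjusted p was never below 0.212. Without S1PR4-/- replicate 3 the log2 fold change was 0.40. The 2 groups did not overlap in 1.64% of the 13038 genes tested. Erythroid markers summed to between 0.803 and 15.2 CPM in WT and between 0.642 and 8.08 CPM in S1PR4-/- non-GC B samples, and their part in the Car2 values was not tested.

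The other 3 genes overlapped between genotypes in non-GC B cells. Pde4b measured 384, 346, 319.6, 364 and 362 CPM in WT and 285, 321, 425 and 301 CPM in S1PR4-/- samples. Usp28 measured 49.7, 52.9, 45.1, 46.9 and 44.3 CPM in WT and 38.2, 48.6, 60.1 and 45.6 CPM in S1PR4-/- samples. Acss1 measured 271, 239, 323, 226 and 269 CPM in WT and 286, 283, 290.5 and 235 CPM in S1PR4-/- samples. The S1PR4-/- sample with the most Car2 was also the highest of its group in these 3 genes. The log2 fold changes were -0.09 (95% confidence interval -0.34 to 0.15) for Pde4b, 0.01 (-0.26 to 0.28) for Usp28 and 0.04 (-0.18 to 0.27) for Acss1, with adjusted p = 0.995, 0.996 and 0.995. None of the 4 genes was called in non-GC B cells, where 0.0537% of genes were. Car2 alone had an unadjusted p under 0.05, as did 4.55% of all genes, and DESeq2 and limma voom called 0. Bambi-ps1 had 0 to 4 counts in each non-GC B sample.

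**Figure D4:**
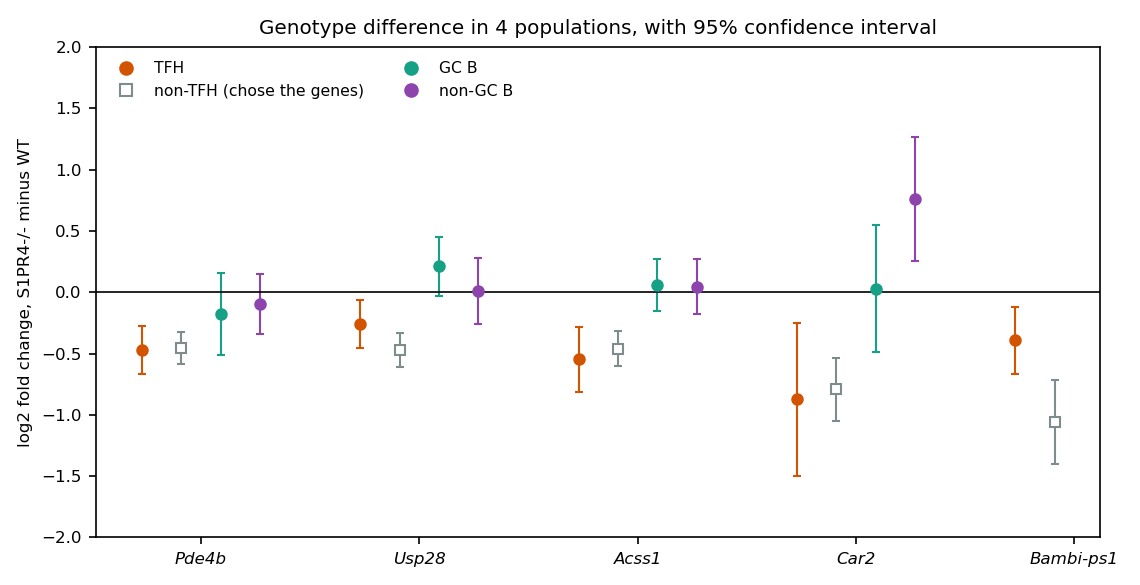
Log2 fold change of S1PR4-/- over WT with its 95% confidence interval (y axis) for each gene (x axis) in TFH (orange), GC B (green) and non-GC B cells (purple), and in non-TFH cells (open grey squares), which chose the genes. The T cell values lie below 0, the B cell intervals of Pde4b, Usp28 and Acss1 include 0, and Car2 in non-GC B cells lies above 0; Bambi-ps1 could be fitted in T cells only.

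Whether the genotype difference varied among TFH, GC B and non-GC B cells was tested with an interaction of genotype and population. No gene of the 5 passed it by edgeR (0.165% of 15738 genes did). The adjusted p was 0.118 for Acss1, 0.133 for Car2, 0.348 for Usp28, 0.645 for Pde4b and 0.903 for Bambi-ps1, and 3 of the 5 had an unadjusted p under 0.05, as did 9.53% of all genes. Bambi-ps1 had at most 9 counts in any B cell sample, too few for this test to compare it across the populations. The difference of log2 fold changes, TFH minus GC B, was -0.63 for Acss1, -0.94 for Car2, -0.49 for Usp28 and -0.32 for Pde4b. For Car2 the difference of non-GC B minus GC B was 0.72. DESeq2 called Acss1 (adjusted p = 0.0159) and Car2 (adjusted p = 0.0138) in the same test, and limma voom called 0. A fit of all 8 groups called Car2 alone (adjusted p = 0.0494), and leaving out WT TFH replicate 4 called Acss1 alone (0.0467).

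Between the B cell populations, Pde4b and Car2 differed and Usp28 and Acss1 differed little or not. Pde4b was 2.93-fold lower in WT GC B cells (mean 121 CPM ± 26.5 SD, n = 6) than in WT non-GC B cells (355 CPM ± 24.2, n = 5), with no overlap. Its log2 fold change was -1.56 (SE 0.14, adjusted p = 6.27e-07, edgeR), and in S1PR4-/- cells it was -1.63 (SE 0.16, adjusted p = 4.93e-06). Car2 fell from 27.1 CPM ± 3.30 to 7.98 CPM (range 4.46 to 10.2) in WT cells, a log2 fold change of -1.77 (SE 0.19, adjusted p = 3.71e-06), and in S1PR4-/- cells it was -2.49 (SE 0.30, adjusted p = 2.20e-05). These 2 of the 4 genes tested were called in both genotypes, where 47.8% of 13324 genes were called in WT (23.1% lower) and 48.2% of 13484 in S1PR4-/- cells (22.9% lower). The groups did not overlap in 50.1% and 53.3% of genes, so such differences were common between these populations. Usp28 and Acss1 did not pass in WT cells, with log2 fold changes of 0.16 (95% confidence interval -0.09 to 0.40) and 0.11 (-0.11 to 0.32). In S1PR4-/- cells Usp28 was higher in GC B cells by 0.35 on the log2 scale (SE 0.12, adjusted p = 0.0263), which was under 1.5-fold (64.6% of genes had an FDR under 0.05 there and 67.2% in WT) and did not hold in 6 of the 10 fits with 1 sample left out (adjusted p up to 0.0869), nor with the replicate number as a block (0.0519).

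**Figure D5:**
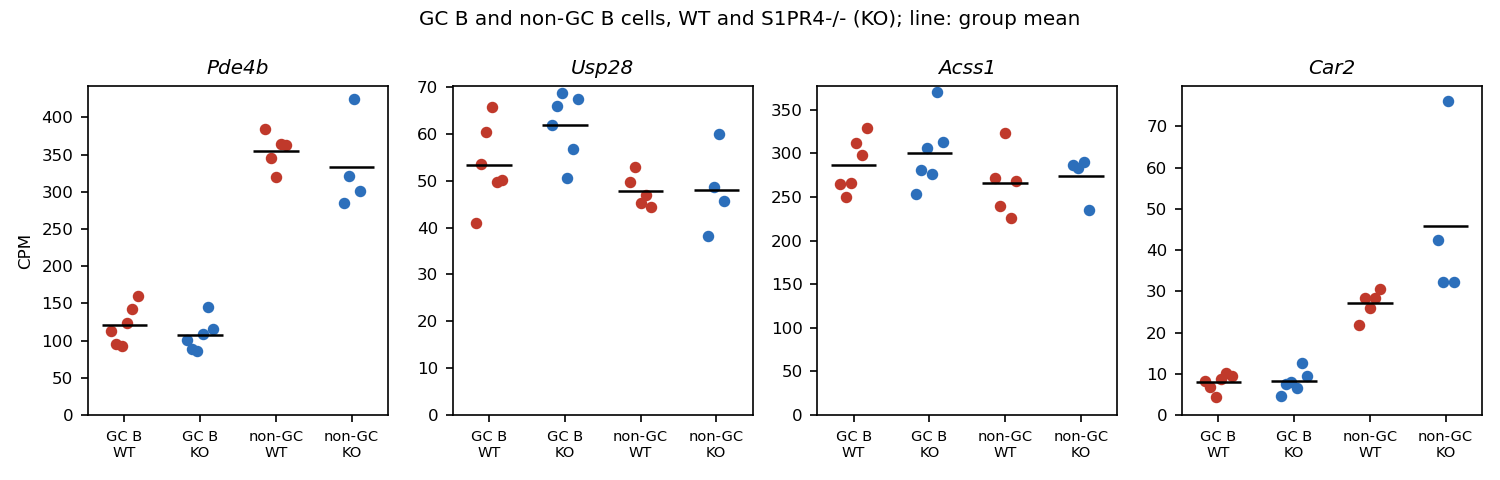
CPM of the 4 genes measured in B cells (y axis, from 0) in GC B and non-GC B samples of WT (red) and S1PR4-/- mice (blue), with the group mean as a line. Pde4b and Car2 are higher in non-GC B than in GC B samples without overlap, Usp28 and Acss1 overlap, and 1 S1PR4-/- non-GC B sample stands out for Car2 at 76.2 CPM.

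The same description for T cells carries no test, since non-TFH samples chose the genes. In WT mice Usp28 was 5.33-fold, Car2 7.66-fold, Acss1 2.52-fold and Pde4b 2.41-fold lower in TFH than in non-TFH cells, each without overlap. In S1PR4-/- mice the corresponding values were 4.68, 8.23, 2.72 and 2.47. The 2 populations did not overlap in 46.8% of 14182 genes in WT and 46.5% in S1PR4-/- mice. Bambi-ps1 was 1.41-fold lower in WT TFH cells and its ranges overlapped in both genotypes.

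Each gene had its own order over the 8 groups. Pde4b was highest in non-GC B cells, then in non-TFH cells, while GC B and TFH groups came last, with neighbouring ranges that overlapped from WT GC B (121 CPM) down to S1PR4-/- TFH cells (76.0 CPM). Usp28 was highest in WT non-TFH cells (167 CPM) and next in S1PR4-/- non-TFH cells (120 CPM ± 9.05, n = 6), well above the 4 B cell groups (47.8 to 61.9 CPM), whose neighbouring ranges overlapped, and lowest in TFH cells. Acss1 was highest in the 4 B cell groups (266 to 299.9 CPM), which overlapped in turn, and fell through non-TFH to TFH cells. Car2 was highest in S1PR4-/- non-GC B cells (45.8 CPM ± 20.9, n = 4), followed by WT non-GC B cells, with WT non-TFH and both GC B groups overlapping at 7.98 to 9.87 CPM, S1PR4-/- non-TFH cells next, overlapping the GC B ranges but not that of WT non-TFH cells, and TFH cells last. Bambi-ps1 was a T cell transcript here. Its means were 7.04 to 14.7 CPM in the 4 T cell groups and 0.0379 to 0.20 CPM in the B cell groups.

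Few related genes passed the test between genotypes. Lists of such genes were counted in each comparison, with the 5 genes themselves left out. In TFH cells 1 gene of the lists passed both thresholds, the bicarbonate transporter Slc4a7. It fell from 40.9 CPM ± 8.15 in WT to 26.5 CPM ± 3.40 in S1PR4-/- cells (log2 fold change -0.60, SE 0.12, adjusted p = 0.0401), and in non-TFH cells its log2 fold change was -0.30 (SE 0.19, adjusted p = 0.611). It was 1 of 6 bicarbonate and proton transporters tested. A further 2 list genes, named after their values were seen, had an FDR under 0.05 but less than 1.5-fold. Ccne1, a cyclin that FBXW7 marks for degradation, rose by 0.39 on the log2 scale (adjusted p = 0.0499), and Crat, the carnitine acetyltransferase, fell by 0.49 (adjusted p = 0.0476).

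Among the other lists in TFH cells, edgeR called 0 of 9 further cyclic AMP phosphodiesterases (2 with an unadjusted p under 0.05), 0 of 22 genes for cyclic AMP production and protein kinase A (8), 0 of 14 of the USP28 and FBXW7 axis (4), 0 of 14 of acetate and acetyl-CoA metabolism (5), 0 of 5 other carbonic anhydrases (0) and 0 of 21 of BAMBI and TGF-β signaling (8). Of all genes in TFH cells 0.496% were called and 19.2% had an unadjusted p under 0.05. In non-TFH cells it called none in any list, with an unadjusted p under 0.05 in 3 of 10, 4 of 22, 3 of 14, 2 of 15, 1 of 6 and 6 of 20 genes of the same lists and in 0 of 6 transporters, where 11.3% of all genes had one. The median log2 fold change of the other phosphodiesterases was -0.22 in TFH and 0.17 in non-TFH cells, beside medians near 0 over all genes. No list gene was called between genotypes in GC B cells, where 1 of 17 genes for cyclic AMP production and 1 of 14 of the USP28 axis had an unadjusted p under 0.05. In non-GC B cells none was called either, with such a p for 1 of 10 phosphodiesterases, 2 of 19 genes for cyclic AMP production, 1 of 15 for acetate and 3 of 17 for TGF-β signaling. Such a p was found for 4.13% of all genes in GC B and 4.55% in non-GC B cells.

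The same lists held many differences when GC B cells of WT mice were set against non-GC B cells. Of the cyclic AMP phosphodiesterases, 2 were higher and 3 lower in GC B cells, among them Pde2a, which fell from 148 to 46.8 CPM (log2 fold change -1.66, adjusted p = 3.54e-06), and Pde4a, which rose from 9.86 to 18.7 CPM (0.92, adjusted p = 0.00207). Pde4b and its relative Pde4a thus moved in opposite directions. Car13, another cytosolic carbonic anhydrase, rose from 0.41 to 19.3 CPM (5.52, adjusted p = 2.59e-06), opposite to Car2. Slc16a1, a carrier of monocarboxylates, rose from 18.9 to 70.6 CPM (1.90, adjusted p = 4.51e-07), and Acss2, the cytosolic relative of Acss1, fell from 21.5 to 9.85 CPM (-1.13, adjusted p = 4.20e-05). Ccne1 rose from 9.97 to 77.8 CPM (2.96, adjusted p = 1.75e-07) and Fbxw7 from 39.7 to 76.9 CPM (0.95, adjusted p = 7.97e-06). In the TGF-β list 2 genes were higher and 12 lower of 19 tested, the latter including Bambi itself, which fell from 2.59 to 0.621 CPM (-2.05, adjusted p = 0.00119). The comparison called 47.8% of all genes.

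Genes near the 5 did not pass the test between genotypes. The neighbours tested on either side, up to 489.4 kb away, had adjusted p above 0.05 in all comparisons of genotypes in which they could be fitted (edgeR). The largest difference next to Bambi-ps1 was that of Gm14085, 17.4 kb away, with log2 fold changes of -0.62 (SE 0.19, adjusted p = 0.217) in non-TFH and -0.60 (SE 0.17, adjusted p = 0.0746) in TFH cells. Slc28a2, 5.8 kb away on the other side, gave -0.19 (SE 0.08) and -0.12 (SE 0.08). Zw10, 13.1 kb from Usp28, gave -0.03 and 0.16, and Apmap, 9.5 kb from Acss1, gave -0.05 and -0.05. E130215H24Rik, antisense to Acss1, gave -0.56 (SE 0.18, adjusted p = 0.242) in non-TFH cells.

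The genes most like each of them over the 45 samples were found among 12021 genes with a mean of at least 1 CPM, by Pearson's r of log2 CPM. The samples of a group share their population and genotype, so r here mostly reads the order of the groups and is given as a description. Pde4b was closest to C87436, Rapgef4 and Sgms1 (r = 0.96 each), of which Rapgef4 encodes the cyclic AMP sensor EPAC2. Usp28 was closest to Amigo2 (0.951), St8sia6 (0.944) and Ppp2r5a (0.921), Acss1 to Otud1 (0.971), Mtss1 (0.967) and Osbpl9 (0.964), Car2 to Rnf122 (0.966), Rnf130 (0.963) and Mtm1 (0.96), and Bambi-ps1 to Ass1 (0.981), Cd40lg (0.98) and Emb (0.98). Cd40lg encodes CD40 ligand, which activated helper T cells carry. After the mean of each group was subtracted, the closest genes were Gimap8 for Pde4b (0.735), Rb1cc1 for Usp28 (0.706), Klhl24 for Acss1 (0.708), Sat1 for Car2 (0.695) and Ybey for Bambi-ps1 (0.583). Rnf130 was among the 3 closest to Car2 both ways (0.629 after subtraction). Between the 5 genes themselves, r after subtraction was highest for Pde4b with Car2 (0.437) and with Acss1 (0.413) and for Acss1 with Car2 (0.369), and between -0.0923 and 0.226 for the other 7 pairs.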

How the data were processed

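RNA of 45 sorted samples was made into libraries with the Illumina Stranded Total RNA Prep with Ribo-Zero Plus kit. The authors deposited expected counts per gene, made per the labels and methods with cutadapt 2.10, STAR 2.5.3, Picard and RSEM 1.3.0 on mm10, and 8.83% of the values were not whole. They were rounded here, since the tests need whole numbers. The methods name a later GENCODE release than M21, whose symbols were matched here. Samples were grouped by population and genotype from the labels. No label says how many mice gave each sample, so p-values measure the spread between these samples.

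Genes were filtered with filterByExpr, scaled by TMM and tested by edgeR 4.0.16 (R 4.3.3) with the quasi-likelihood test and Benjamini-Hochberg adjustment over all genes tested. Calls needed more than a 1.5-fold change besides an FDR below 0.05. The interaction used the FDR alone. CPM values use TMM factors over all samples, and log2 CPM a prior count of 2. Alternatives were DESeq2 1.42.0, limma 3.58.1 voom, RLE scaling, no filter on low counts, 1 fit of all 8 groups, a replicate block, covariates for Xist and for markers of other cells, each sample left out, and, chosen after seeing the data, the samples with Xist above 1 CPM. Scripts were tested on simulated data. Sequences were handled with Biopython 1.88.

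The 5 genes, the gene lists and the tests were chosen with earlier results of these data known. Named are the 5 genes, S1pr4, list genes called in a comparison (up to 6 per list, largest change first), overlapping and nearest tested genes, and the 3 genes most like each over 45 samples, before and after group means were subtracted. The cell type markers named singly were picked after their values were seen. Non-TFH samples chose the genes, so comparisons with them carry no test. Total counts of 26299429 to 45548215 per sample set the precision, and genes with a few counts in a sample are imprecise.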

Additional observations from a re-analysis of the deposited data

Results flagged for a closer look

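Acss1 in S1PR4-/- non-GC B cells had 1 sample apart from the others of its group. Replicate 4 measured 235 CPM and the nearest of the other 3 measured 283 CPM, a gap of 0.861 of the range over 4 samples. It was 1 of 40 groups of values checked, and chance gives about 1 in 20.

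Car2 moved in opposite directions in 2 populations. Every S1PR4-/- sample was below every WT sample in non-TFH cells, where the mean was lower (-42.4%) and 1.11% of all genes did not overlap. In non-GC B cells every S1PR4-/- sample was above every WT sample and the mean was 69.2% higher, where 1.64% of all genes did not overlap. The rise in non-GC B cells did not pass adjustment (adjusted p = 0.981, edgeR). S1PR4-/- replicate 3 (76.2 CPM) raised that mean. Car2 was chosen for the first of these, and the difference between the 2 populations was not tested.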

How the results depend on the processing

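Between genotypes, edgeR called 67 genes in TFH cells, against 184 by DESeq2, 153 with all 8 groups in 1 fit, 151 with Xist as a covariate, 13 with the marker score of other cells as a covariate, 7 in samples with Xist above 1 CPM, and 15 to 117 with 1 sample left out. In non-TFH cells 15 became 56 by DESeq2, 9 with the Xist covariate, 6 in samples with Xist above 1 CPM, and 11 to 27 with 1 sample left out, the 27 without WT replicate 6. In GC B cells 8 became 14 by DESeq2. In non-GC B cells 7 became 16 by DESeq2, 25 with all 8 groups and 3 in samples with Xist above 1 CPM. For the interaction 26 became 250 by DESeq2, 5 by limma voom, 49 with all 8 groups, 7 with the replicate block, 6 with the marker score, and 9 to 77 with 1 sample left out. The causes were not tested.

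Of the 5 genes, 0 were called in TFH cells and 1 (Acss1) with the Xist covariate, and 0 to 1 with 1 sample left out (1 without WT replicate 4 or 6 or S1PR4-/- replicate 2). In the interaction 0 became 2 by DESeq2, 1 with all 8 groups, and 0 to 1 with 1 sample left out. Replicate numbers did not pair the genotypes in 3 populations: the lowest correlation of deviations was -0.19, -0.18 and -0.10 (TFH, then GC B, then non-GC B cells). There 1 of 6, 1 of 6 and 1 of 4 samples correlated best with their own number. In non-TFH cells the lowest correlation between genotypes was 0.005 (mean 0.14), and 3 of 6 samples correlated best with their own number. Between the B cell populations it was 4 of 5 in WT (mean 0.11, lowest -0.03) and 0 of 4 in S1PR4-/- mice (mean -0.03, lowest -0.09). Some WT samples of the same number may thus share mice, though those of replicate 5 differed in Xist (0 CPM in GC B and 39.1 CPM in non-GC B cells). The main fit did not pair them. With the replicate block the adjusted p between the WT B cell populations was 3.53e-06 for Pde4b and 4.73e-05 for Car2 (edgeR). TFH and non-TFH samples, not tested against each other, correlated best with their own number in 4 of 6 WT and 6 of 6 S1PR4-/- pairs (lowest 0.07 and 0.13). With the replicate block 46 genes were called in TFH cells, and Pde4b (adjusted p = 0.0342) and Acss1 (0.025) stayed under 0.05.

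Signs turned only for values near 0. In samples with Xist above 1 CPM, the genotype log2 fold change was -0.00114 for Acss1 and -0.0161 for Car2 in GC B cells and -0.0877 for Usp28 and -0.00736 for Acss1 in non-GC B cells, and Acss1 between the B cell populations of S1PR4-/- mice was -0.00454. Usp28 in non-GC B cells was -0.0266 with the block and -0.00108 with the Xist covariate. With 1 sample left out, Acss1 ran from -0.0145 to 0.11 and Car2 from -0.15 to 0.14 in GC B cells, and Usp28 from -0.11 to 0.11 and Acss1 from -0.013 to 0.11 in non-GC B cells. Counts limit Car2 in TFH cells and Bambi-ps1 in B cells. Samples with Xist above 1 CPM were not run for the interaction.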
